A study of Rattus norvegicus with 9 samples.

Results

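Fatty acid beta-oxidation enzymes were followed in pancreatic islet RNA of male Wistar rats. The set holds 9 of the 14218 genes the annotation names: Cpt1a, Slc25a20 and Cpt2 of the carnitine shuttle, the acyl-CoA dehydrogenase genes Acadvl, Acadl and Acadm, the trifunctional protein genes Hadha and Hadhb, and Hadh. The members were chosen by symbol, as probe sets that the platform annotation gives exactly 1 gene symbol, equal to a listed gene. This gave 13 of 31042 probe sets, and the main probe set of each gene was the one with the highest mean signal over the 9 arrays. Each of the 9 main probe sets passed the filter on low signal, as did 3 of the 4 others.

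The cafeteria-fed rats received a fat-rich cafeteria diet supplying 66% of calories as fat for 30 days, and the standard-fed rats a chow supplying 8%. Animals were 7 weeks old at the start, were caged singly, and carried no genetic change in the labels. The set analysed here has 5 cafeteria and 4 standard islet samples, each an independent biological replicate on 1 Affymetrix Rat Genome 230 2.0 array. Islets were isolated by collagenase and picked by hand. Samples were grouped by their titles. In 9 of 9 samples the diet field names the other diet; grouping by that field would reverse each sign below.

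Mitochondrial beta-oxidation shortens fatty acids to acetyl-CoA. Long-chain fatty acids enter as carnitine esters, and each round then runs through a dehydrogenase, a hydratase, a second dehydrogenase and a thiolase. The acyl-CoA dehydrogenases divide the first step by chain length, the trifunctional protein carries the last steps for long chains, and Hadh takes the third step for short and medium chains. In beta cells Hadh also restrains insulin release: its enzyme binds glutamate dehydrogenase, as shown in mice, and loss of HADH in humans causes hyperinsulinism.

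Over the whole array, each trimmed mean signal was 500 and array medians lay between 147.0 and 166.6. Of 18625 probe sets tested with limma, 0 passed an adjusted p of 0.05 and 1080 had an unadjusted p under 0.05. Beta cell markers were present, with 9 of 14 listed genes named and 9 tested, summing to signals of 156000 to 208600 in cafeteria islets and 144900 to 194800 in standard islets. Acinar markers (15 of 17 named) summed to 3232 to 11860 in cafeteria islets and 4136 to 10520 in standard islets, and 12 of the 13 tested had positive folds. Gene by gene, the groups overlapped for all 13. Cafeteria replicate 5 was the lowest array, at -1.098 from their mean log2 level. Gp2, with a standard median of 84.65, passed the filter at 91.1 mainly through the cafeteria arrays. Macrophage markers (11 of 11 named) summed to 4310 to 7074 in cafeteria islets and 7505 to 13430 in standard islets, and 10 of the 10 tested had negative folds. The largest parts of these sums were Cd74 and Lyz2, with means of 2168 and 1728 in cafeteria islets and 4412 and 2547 in standard islets. Gene by gene, only Cd74 of the 10 tested had groups that did not overlap, where 1.76% of all probe sets tested did not. Cd68 had a log2 fold of -0.0039. Negative folds also held for 3 of 3 lymphocyte markers tested (8 named, median -0.75), 3 of 3 duct markers tested (5 named) and 5 of 5 delta and PP cell markers. Of the lymphocyte markers tested, Coro1a and Cd5 had cafeteria medians of 87.9 and 77.7, below the filter signal of 91.1. They passed mainly through the standard arrays, so the sign of their folds is partly set by the filter. Of the markers tested, 4 negative and 1 positive fold were of alpha cells, 5 and 2 of endothelial cells, and 4 and 3 of fibroblasts and stellate cells. Standard replicate 3 stood apart in the lymphocyte markers, by 1.76 above their mean log2 level, and standard replicate 1 in the duct markers, by 1.61. The part of these other cells in the values of the 9 genes was not tested. In whole islets, fewer cells of a type and less RNA per cell cannot be told apart.

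No beta-oxidation gene passed the test between the diets. Of the 9, 8 had a positive log2 fold of cafeteria over standard and 1 a negative one, between -0.12 and 0.17, with a median of 0.081. Over all probe sets tested, 48.07% were positive and the median was -0.009. With 1 probe set per gene, as for the 9, 5130 of 10347 genes tested were positive and the median was -0.0019. Called members numbered 0 of 9 by limma at an adjusted p of 0.05, where the background was 0% of probe sets, and 0 of 9 at an unadjusted p under 0.05, where it was 5.80% (3.01% higher and 2.79% lower in cafeteria islets). Their adjusted p-values over all probe sets lay between 0.859 and 0.988. The 95% intervals of the 9 folds reached no further than 0.41 on the log2 scale, a ratio of 1.33 in either direction. With 1 array left out, 8 of the 9 folds, all but that of Slc25a20, moved by over 1.5 times. Without standard replicates 1 and 3 and cafeteria replicate 3, arrays doubted in an earlier look at these data, 5 of 9 folds were positive and the median was 0.0056.

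**Figure D1:**
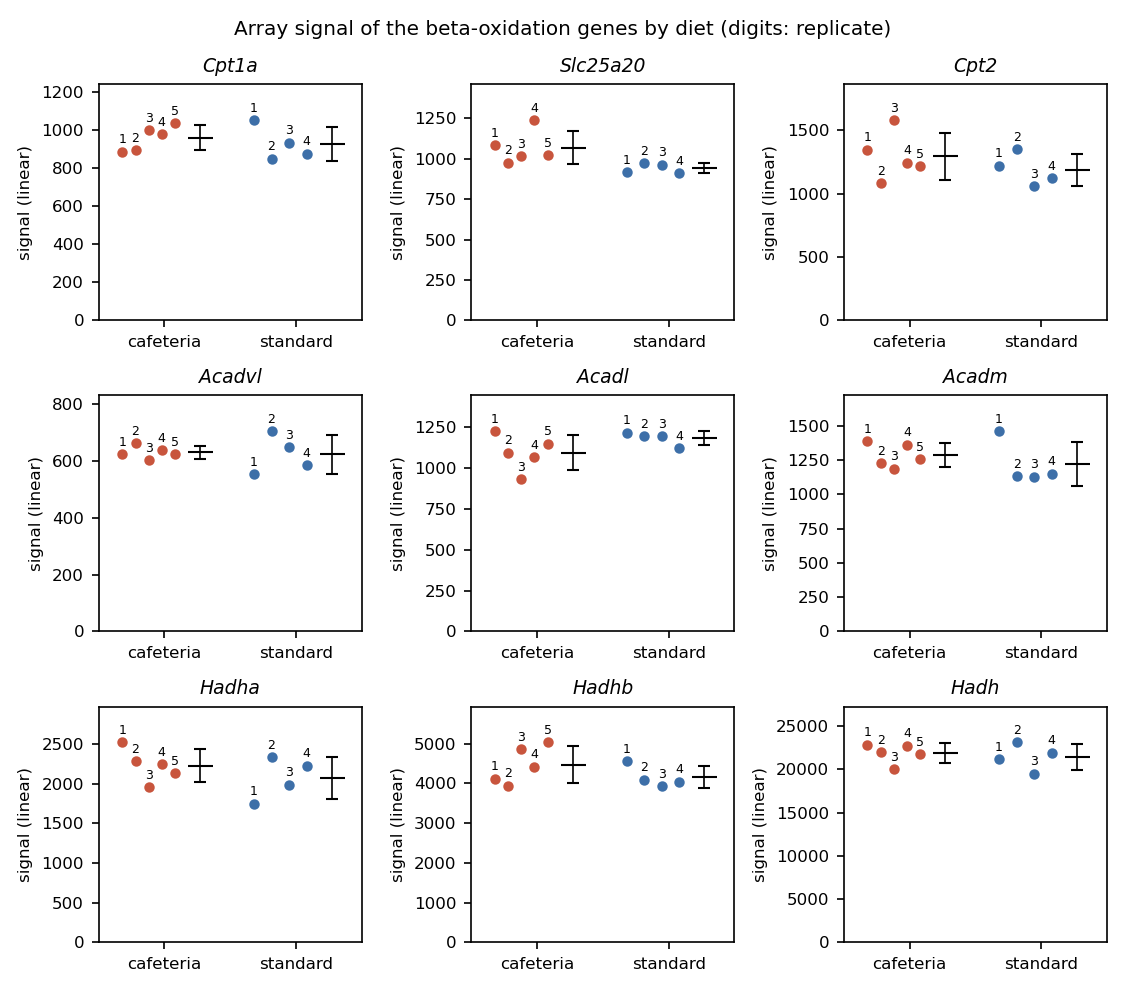
Linear array signal of the main probe set of each of the 9 genes, cafeteria islets in red (n = 5) and standard islets in blue (n = 4); digits are replicate numbers, and the bar beside each group gives its mean and SD. Only Slc25a20 has all cafeteria arrays above all standard arrays, its lowest cafeteria array at 975.5 and its highest standard array at 973.4.

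The carnitine shuttle begins with Cpt1a, the liver-type carnitine palmitoyltransferase of the outer membrane, which malonyl-CoA inhibits and which sets the rate of long-chain entry. Its main probe set (1386946_at) had signals of 886.3, 894.7, 999.7, 978.4 and 1034 in cafeteria islets, against 1049, 849.3, 933.0 and 875.9 in standard islets. The groups overlapped, and the highest of all 9 arrays was standard replicate 1. This gave a log2 fold of 0.050 ± 0.11 (SE; limma adjusted p = 0.960). Its dimmer probe set (1367836_at) had 384.1, 306.6, 237.6, 354.9 and 203.4 in cafeteria islets, against 270.0, 313.1, 406.4 and 379.9 in standard islets, a log2 fold of -0.21 ± 0.20 (limma adjusted p = 0.884). The probe sets thus differed in sign, and both intervals included 0.

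Slc25a20, the carnitine-acylcarnitine translocase of the inner membrane, was the only one of the 9 whose groups did not overlap. That is 11.1% of the genes, where 1.76% of all probe sets tested did not overlap (0.999% higher and 0.762% lower in cafeteria islets). With 1 probe set per gene, 213 of 10347 genes tested did not overlap. It had 1084, 975.5, 1016, 1236 and 1024 in cafeteria islets, against 917.8, 973.4, 963.1 and 909.8 in standard islets. Each of the 5 cafeteria arrays lay above all 4 standard arrays, with cafeteria replicate 2 just above standard replicate 2. Mean signals were 1067 ± 102 (SD, n = 5) in cafeteria islets and 941.0 ± 31.9 (SD, n = 4) in standard islets, a log2 fold of 0.17 ± 0.11 (SE). The exact two-sided permutation p of this 1 gene was 0.0159, the only one under 0.05 among the 9 main probe sets. Limma's p adjusted over all probe sets was 0.859. Scaling the arrays to a common median made the groups overlap.

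Cpt2, the inner-membrane transferase that releases acyl-CoA into the matrix, had 1346, 1080, 1576, 1244 and 1215 in cafeteria islets, against 1219, 1351, 1060.0 and 1124 in standard islets. Cafeteria replicate 3 alone exceeded the standard range. Cpt2 had a log2 fold of 0.11 ± 0.13 (SE; limma adjusted p = 0.909), and -0.017 without the 3 doubted arrays, of which that array is one.

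Acadvl starts oxidation of very long chains at the inner membrane. It had 623.5, 663.0, 602.4, 638.0 and 625.3 in cafeteria islets, against 552.8, 704.3, 649.1 and 586.6 in standard islets. All cafeteria arrays lay inside the standard range, and the log2 fold was 0.021 ± 0.12 (SE; limma adjusted p = 0.988). The spread was 3.52% of the mean in cafeteria islets and 10.8% in standard islets.

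Acadl, the long-chain dehydrogenase, was the only one of the 9 with a negative fold. It had 1223, 1093, 932.5, 1068 and 1149 in cafeteria islets, against 1216, 1196, 1194 and 1121 in standard islets. Of the cafeteria arrays, 3 lay below all standard arrays and 1 above them. The log2 fold was -0.12 ± 0.11 (SE; limma adjusted p = 0.882), and -0.032 without the 3 doubted arrays, where the lowest of the cafeteria arrays is left out.

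Acadm, the medium-chain dehydrogenase, had 1389, 1225, 1187, 1361 and 1254 in cafeteria islets, against 1458, 1134, 1129 and 1151 in standard islets. Standard replicate 1 was the highest of the 9 arrays, while the other standard arrays lay below all cafeteria arrays. The log2 fold was 0.081 ± 0.11 (SE; limma adjusted p = 0.929), and 0.17 without standard replicate 1. The groups then did not overlap, which follows from the order just given and adds no support. The share of all probe sets without overlap was not counted for that split. The Acadm upstream sequence is printed because it alone among the 8 windows of these genes held the cAMP response element TGACGTCA, in capitals, which 1.59% of all 33469 RefSeq upstream windows of 250 bases held. It lies 103 to 96 bases before the start, at chr2:245542865-245543114 of GRCr8, minus strand, printed 5′ to 3′ along the gene.
Acadm: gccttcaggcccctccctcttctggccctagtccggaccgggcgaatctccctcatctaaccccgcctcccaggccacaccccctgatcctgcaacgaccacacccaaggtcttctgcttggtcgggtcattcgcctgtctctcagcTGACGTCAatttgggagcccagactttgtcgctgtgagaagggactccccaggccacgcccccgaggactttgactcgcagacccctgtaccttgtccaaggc

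A match of these letters is a description of the window. The nuclear receptor half-site AGGTCA, searched on both strands, was in the window of 1 of the 8 genes, Acadvl, against 14.1% of all windows, and the direct repeat of that half-site with 1 base between the copies, known as a PPAR-binding form, in 0 of 8, against 0.0508%. The longer TCAAGGTCA, which also contains it, was in 0 of 8, against 0.388%. At shares this low most sets of 8 windows would have 0, so these counts do not set the genes apart. Only exact letters within the windows were searched, so sites in other letters or elsewhere were not looked at. Acadl had no window in the table.

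**Figure D2:**
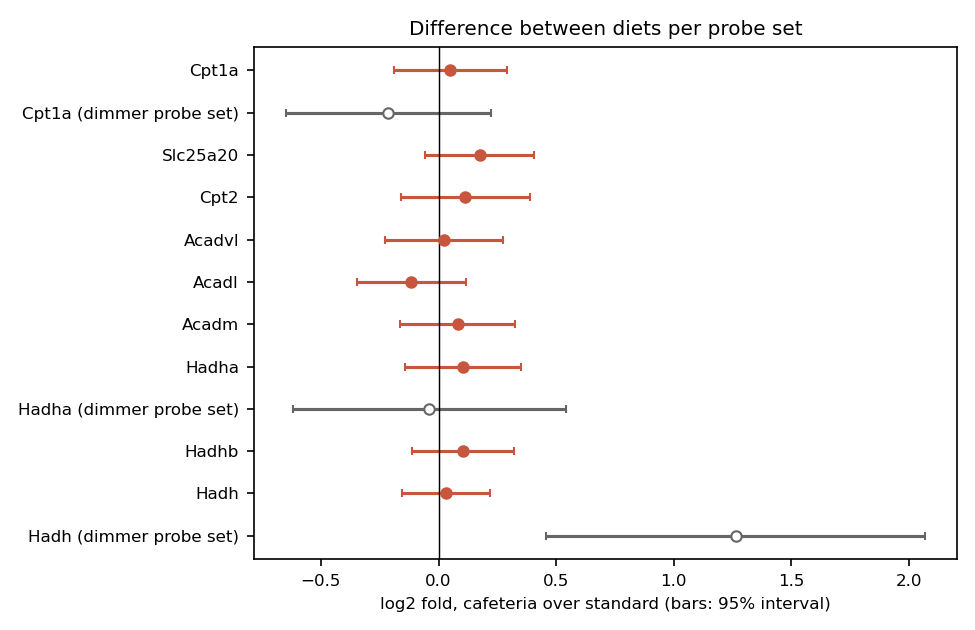
Log2 fold of cafeteria over standard for the 12 probe sets tested, with 95% intervals from limma; filled red points are the main probe sets and open points the dimmer ones. The 9 main intervals include 0, and the dimmer Hadh probe set stands at 1.26.

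Hadha and Hadhb encode the alpha and beta subunits of the trifunctional protein, which work as 1 complex. Hadha had 2516, 2278, 1951, 2244 and 2130 in cafeteria islets, against 1747, 2334, 1985 and 2225 in standard islets. The lowest array was standard replicate 1 and the highest cafeteria replicate 1. Hadhb had 4116, 3942, 4863, 4424 and 5030.0 in cafeteria islets, against 4552, 4093, 3937 and 4041 in standard islets. Cafeteria replicates 3 and 5 exceeded the standard range. The log2 fold of Hadha was 0.10 ± 0.11 (SE; limma adjusted p = 0.905) and that of Hadhb 0.10 ± 0.10 (SE; limma adjusted p = 0.888).

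Of the 2 dimmer Hadha probe sets, 1394857_at had 120.2 ± 41.0 in cafeteria islets and 121.4 ± 31.3 in standard islets (SD), a log2 fold of -0.04 ± 0.27 (SE; limma adjusted p = 0.990). The other, 1394763_at, missed the filter, with 50.9 to 105.1 in cafeteria islets and 67.2 to 132.1 in standard islets.

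Both genes are neighbours that point away from each other, with 300 bases between their annotated starts. The sequence before Hadha is shown because 200 of its bases also lie within the Hadhb window. It runs over chr6:31907551-31907800 of GRCr8 on the plus strand; capitals mark the GC box GGGCGG, here on the opposite strand. That box was in the windows of 5 of the 8 genes (Slc25a20, Cpt2, Hadha, Hadhb and Hadh), against 30.5% of all windows. The Hadha box lies in the shared bases. It is the same site as the Hadhb box 96 to 91 bases before the Hadhb start, so the Hadha and Hadhb windows are not separate in this count. Hadhb also had a box 31 to 26 bases before its start.
Hadha: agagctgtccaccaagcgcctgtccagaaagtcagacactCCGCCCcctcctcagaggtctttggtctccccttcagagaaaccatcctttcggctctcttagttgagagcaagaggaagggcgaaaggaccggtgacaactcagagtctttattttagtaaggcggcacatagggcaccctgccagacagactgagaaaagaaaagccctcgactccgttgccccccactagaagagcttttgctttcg

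The signals of both genes were also compared over the arrays. Over 9 arrays Pearson's r was -0.434 (exact permutation p = 0.244) and Spearman's rho -0.35 (exact permutation p = 0.359). Adjusted over the 36 pairs of the 9 genes, p was 0.714 for r and 0.680 for rho. Without the 2 arrays farthest from the median Hadha signal, cafeteria replicate 3 and standard replicate 1, this r was -0.139. With the group means taken out over all 9 arrays, r was -0.675 (exact p = 0.0427 over permutations within groups, not adjusted over the pairs). Among the 36 pairs none passed after adjustment. The smallest Pearson p was that of Cpt1a with Hadhb (r = 0.826, rho = 0.667; exact permutation p = 0.0087 and 0.0589, adjusted 0.277 and 0.655), with r = 0.759 without the 2 arrays farthest in Cpt1a. The smallest Spearman p was that of Hadha with Hadh (rho = 0.9, r = 0.739; exact permutation p = 0.0020 and 0.0231, adjusted 0.0730 and 0.277), with r = 0.859 without the 2 arrays farthest in Hadha.

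The beta-actin 3′/5′ ratio, a control for RNA integrity and labelling, was set beside these signals. It was 4.589 to 5.629 on cafeteria replicates 3 and 5 and standard replicate 1, and 2.795 to 3.816 on the other 6 arrays. On those 3 arrays the main Cpt1a probe set had 999.7 to 1049, against 849.3 to 978.4 on the other 6, and Hadhb 4552 to 5030.0, against 3936 to 4423. The dimmer Cpt1a probe set ran the other way, at 203.4 to 270.0 on the 3 arrays and 306.6 to 406.4 on the other 6, and so did the dimmer Hadha probe set 1394857_at, at 70.4 to 86.0 against 111.9 to 169.9. These 4 are the probe sets, of 13 for the 9 genes, whose ranges on the 3 and the other 6 arrays did not overlap, and they were picked out for that. Over all probe sets tested, 13.0% did not overlap in this split. The ranges of the other 9, those of Slc25a20, Cpt2, Acadvl, Acadl, Acadm and Hadh among them, overlapped.

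No correlation of the 9 genes with the log2 ratio passed after adjustment. Over the 9 arrays, Hadhb had r = 0.741 (exact permutation p = 0.0249) and rho = 0.55 (p = 0.133), Cpt1a r = 0.68 (exact permutation p = 0.0495) and rho = 0.617 (p = 0.0857), and Hadha r = -0.699 (exact permutation p = 0.0355) and rho = -0.65 (p = 0.0666). Adjusted over the 9 genes, these Pearson p-values were 0.148 each and the Spearman p-values 0.398, 0.386 and 0.386. Without the 2 arrays farthest from the median ratio, r was 0.667 for Hadhb, 0.644 for Cpt1a and -0.542 for Hadha. With the ratio as a covariate the log2 folds were 0.083 for Hadhb, 0.035 for Cpt1a and 0.13 for Hadha.

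**Figure D3:**
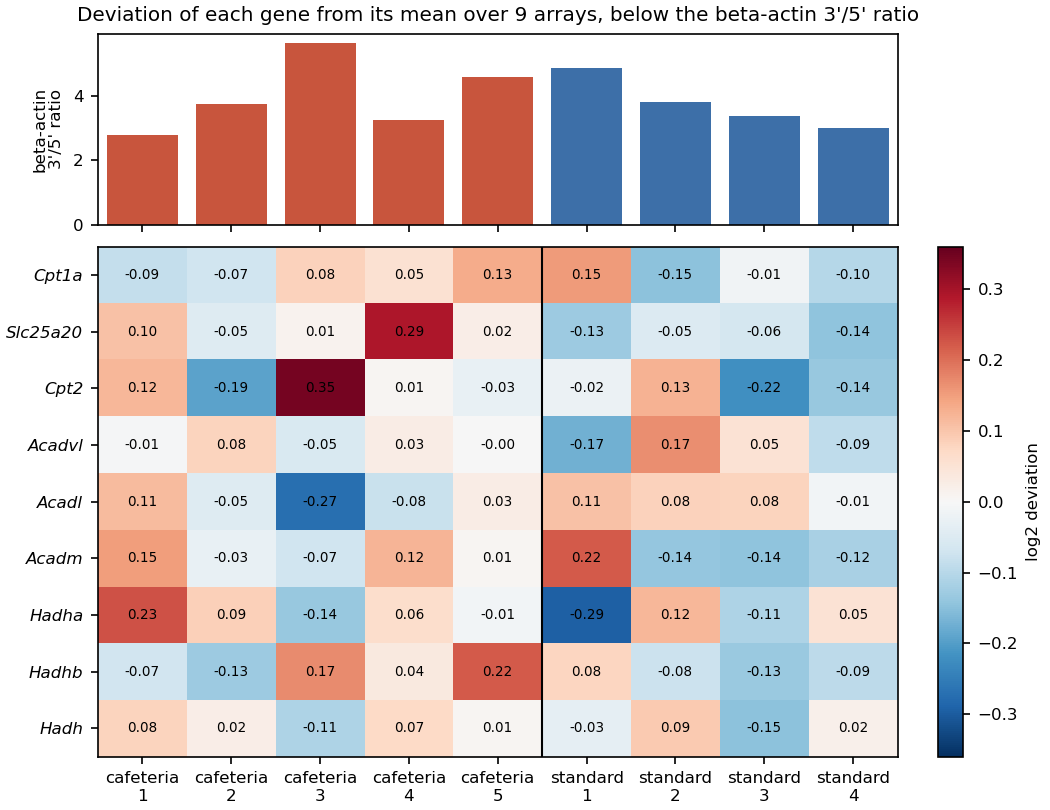
Deviation of each gene's log2(signal + 16) from its own mean over the 9 arrays (numbers and colours), with the beta-actin 3′/5′ ratio of each array above; the 5 cafeteria arrays are left of the line and the 4 standard arrays right of it. Cafeteria replicates 3 and 5 and standard replicate 1 have the highest ratios and the highest Cpt1a and Hadhb values.

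Hadh, the short-chain hydroxyacyl-CoA dehydrogenase gene, had a main probe set (1370237_at) at the 99.8th percentile of mean signal on the array. Its signals were 22875, 21985, 20024, 22750.0 and 21741 in cafeteria islets, against 21148, 23109, 19516 and 21920.0 in standard islets. All cafeteria arrays lay within the standard range. Mean signals were 21875 ± 1143 (SD, n = 5) in cafeteria islets and 21423 ± 1506 (SD, n = 4) in standard islets. Hadh thus had a log2 fold of 0.031 ± 0.086 (SE; limma adjusted p = 0.964), with a 95% interval of -0.15 to 0.22, or ratios of 0.899 to 1.16. Its spread between arrays, 0.0887 on the log2 scale with group means out, was below that of all but 1.65% of the probe sets tested, whose median was 0.257. Low spread was not particular to Hadh. The main probe sets of the other genes in the set ran from 0.104 (Slc25a20, percentile 3.38) to 0.18 (Cpt2, percentile 23.5), all below that median. Spread was not compared with that of probe sets of similar signal, so the part of brightness in these low values was not tested. The brightest probe set on each array had 46683 to 72297, and whether a difference is compressed at the level of Hadh was not tested.

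The dimmer Hadh probe set (1389922_at) had 163.3, 208.4, 250.7, 358.6 and 154.4 in cafeteria islets, against 121.2, 51.9, 33.8 and 174.8 in standard islets. Of the 5 cafeteria arrays, 3 lay above all standard arrays and the other 2 between standard replicates 1 and 4. Mean signals were 227.1 ± 83.0 (SD, n = 5) in cafeteria islets and 95.5 ± 65.0 (SD, n = 4) in standard islets. It lies at the 48.8th percentile of mean signal and passed the filter, at a signal of 91.1, only through the cafeteria arrays. The mean log2 value corresponds to a signal of 216.9 in cafeteria islets and 81.0 in standard islets, where replicates 2 and 3 lay below the filter. The log2 fold of 1.26 ± 0.37 (SE; limma adjusted p = 0.839) is therefore given as a description of a dim probe set. Which transcript each matches was not analysed here.

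**Figure D4:**
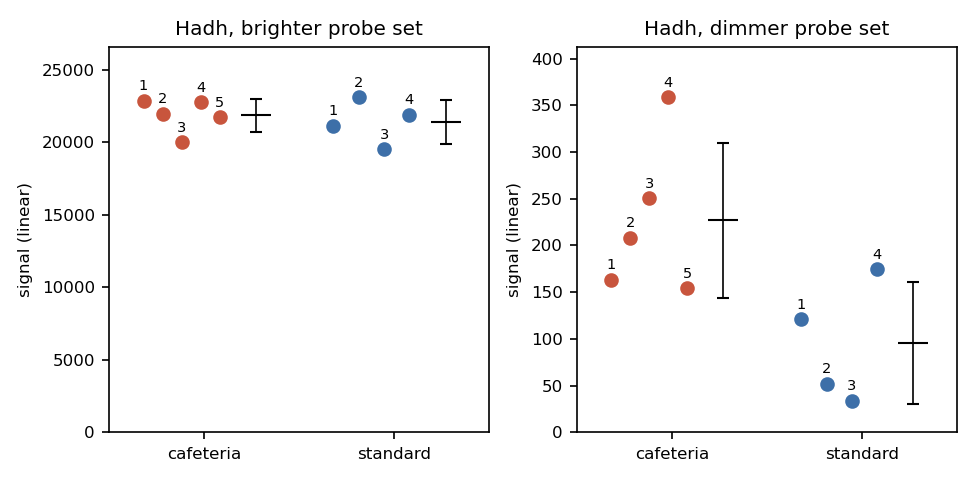
Linear signal of both Hadh probe sets by array (left, 1370237_at; right, 1389922_at), cafeteria in red and standard in blue, digits giving replicates and bars the mean and SD. The brighter probe set lies between 19516 and 23109 in both groups, and the dimmer one between 154.4 and 358.6 in cafeteria islets and 33.8 and 174.8 in standard islets.

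The 250 bases before Hadh are shown for the gene with the brightest signal of the set. They lie at chr2:222504447-222504696 of GRCr8, minus strand, printed 5′ to 3′ along the gene, with the GC box GGGCGG in capitals on the opposite strand at 119 to 114, 60 to 55 and 39 to 34 bases before the start.
Hadh: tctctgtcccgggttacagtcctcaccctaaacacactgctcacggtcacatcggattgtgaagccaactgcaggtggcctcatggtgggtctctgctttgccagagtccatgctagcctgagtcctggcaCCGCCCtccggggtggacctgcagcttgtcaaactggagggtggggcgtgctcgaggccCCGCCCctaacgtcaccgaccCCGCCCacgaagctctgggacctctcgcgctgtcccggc

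Hadh was then set against the other 8 genes. The difference between Hadh and the mean of the other 8, centred over the arrays on the log2 scale, was -0.016 ± 0.070 (SD, n = 5) in cafeteria islets and 0.020 ± 0.086 (SD, n = 4) in standard islets. Its range was -0.12 to 0.066 in cafeteria islets and -0.080 to 0.099 in standard islets, so the groups overlapped. The difference of means, -0.035, was less than either SD. The other 8 genes had a mean deviation of 0.030 ± 0.047 in cafeteria islets and -0.037 ± 0.045 in standard islets. The named genes whose pattern over the 9 arrays was most like that of the main Hadh probe set, among 14051 probe sets, were Drg1 (Pearson's r 0.928), Dtnb (0.925), Por (0.897), Dnajc1 (0.894) and Foxq1 (0.886). With so many probe sets and 9 arrays these are descriptions only.

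The rest of mitochondrial beta-oxidation was measured as 11 of 11 listed genes, all tested, of which 7 had positive and 4 negative folds, with a median of 0.042 against -0.0019 over 10347 genes tested. None passed limma's test over all probe sets, nor an unadjusted p under 0.05. Eci1, an isomerase for unsaturated chains, had 883.7 ± 104.8 in cafeteria islets and 736.4 ± 79.8 in standard islets (SD), a log2 fold of 0.26 ± 0.13 (SE). Acaa2, the mitochondrial thiolase, had -0.25 ± 0.17, Acad9, a dehydrogenase also needed for complex I assembly, 0.15 ± 0.13, and Etfa, which accepts the electrons of the dehydrogenases, -0.13 ± 0.12. With 1 array left out, Acaa2 ranged from -0.35 to -0.096, Acad9 from 0.068 to 0.20 and Etfa from -0.22 to -0.078.

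Of 15 genes of fatty acid uptake and activation, 13 were tested, with 7 positive and 6 negative folds and a median of 0.039. Fabp5, a cytosolic fatty acid-binding protein, was the only one with an unadjusted p under 0.05. It had 502.4, 408.9, 253.5, 437.8 and 402.1 in cafeteria islets, against 528.8, 606.1, 578.4 and 548.7 in standard islets, and the groups did not overlap. Its log2 fold was -0.51 ± 0.18 (SE; limma adjusted p = 0.839; exact permutation p = 0.0159). Fabp5 is also expressed in macrophages, whose markers are given above and whose part in this value was not tested. The acyl-CoA synthetase genes Acsl3 and Acsl4 had -0.32 ± 0.16 and 0.17 ± 0.10, and the carnitine transporter gene Slc22a5 0.22 ± 0.16.

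The peroxisomal route, which shortens very long chains, had 10 of 14 listed genes named and 9 tested, with 7 positive and 2 negative folds, a median of 0.12 and none at an unadjusted p under 0.05. Abcd3, a peroxisomal importer, had 0.32 ± 0.22 (SE), Decr2 0.21 ± 0.14, Crot 0.16 ± 0.15 and Acox3 -0.28 ± 0.28. With 1 array left out, Abcd3 ranged from 0.15 to 0.50, Decr2 from 0.13 to 0.30, Crot from 0.046 to 0.23 and Acox3 from -0.45 to -0.095. Among 13 regulators, 9 were tested, with 3 positive and 6 negative folds and a median of -0.034. Ppargc1a, the coactivator of mitochondrial and oxidation genes, had 152.4, 230.8, 266.9, 381.7 and 333.4 in cafeteria islets, against 154.9, 181.5, 184.6 and 196.2 in standard islets. Of the cafeteria arrays 4 lay above the standard range and 1 below it, and the log2 fold was 0.51 ± 0.23 (SE; limma adjusted p = 0.839; exact permutation p = 0.0952). Mlycd, which removes the Cpt1 inhibitor malonyl-CoA, had -0.30 ± 0.16, Ppard -0.20 ± 0.15 and Sirt3, a mitochondrial deacetylase, -0.18 ± 0.12.

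Of 9 PPAR target genes, 8 were named and 5 tested, with 5 negative folds and a median of -0.084. One of these 5, Plin2, a lipid droplet protein gene named here for its value, was at 0 to 2 decimals, with 1068 ± 182 in cafeteria islets and 1059 ± 90.3 in standard islets (SD). Acot2, a mitochondrial acyl-CoA thioesterase, had 382.3, 384.7, 431.0, 383.3 and 370.8 in cafeteria islets, against 503.2, 546.9, 491.4 and 429.9 in standard islets. Only cafeteria replicate 3 reached the standard range, just above standard replicate 4. The log2 fold was -0.32 ± 0.13 (SE; limma adjusted p = 0.839; exact permutation p = 0.0159). Ucp2, an inner-membrane carrier, had -0.38 ± 0.23, -0.19 without cafeteria replicate 3 and -0.58 without standard replicate 1. Pdk4, which holds back pyruvate oxidation, had -0.058 ± 0.11 and Angptl4 -0.084 ± 0.33.

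Glud1, glutamate dehydrogenase and the partner of the Hadh enzyme, had 4059 ± 309 in cafeteria islets and 4311 ± 271 in standard islets (SD), a log2 fold of -0.088 ± 0.093 (SE; limma adjusted p = 0.899). Of 6 genes around it, 5 were tested, with 2 positive and 3 negative folds; Got1, the cytosolic aspartate aminotransferase, had 0.53 ± 0.23 (SE; limma adjusted p = 0.839; exact permutation p = 0.119), Got2 0.12 ± 0.12 and Gls2 -0.11 ± 0.22. With 1 array left out, Got1 ranged from 0.27 (without standard replicate 3) to 0.76 and Got2 from 0.026 to 0.19. General mitochondrial genes, 11 of 12 tested, had 9 positive and 2 negative folds and a median of 0.042, with Uqcrc2 at 0.20 ± 0.13, Hspd1 at 0.13 ± 0.11, Tomm20 at 0.11 ± 0.099 and Nrf1 at -0.24 ± 0.15. Beta cell genes, 9 of 14 tested, had 5 positive and 4 negative folds and a median of 0.086, with Ins2 at 0.16 ± 0.14, Mafa at 0.15 ± 0.12, Pdx1 at -0.19 ± 0.13 and Nkx2-2 at -0.19 ± 0.16. With 1 array left out, Ins2 ranged from 0.037 (without standard replicate 3) to 0.25, Mafa from 0.070 to 0.27, Pdx1 from -0.28 to -0.12 and Nkx2-2 from -0.37 to -0.087. Of the 32 genes named from these lists, 24 had folds that moved by over 1.5 times in this way. The lowest limma adjusted p in these lists was 0.839.

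**Figure D5:**
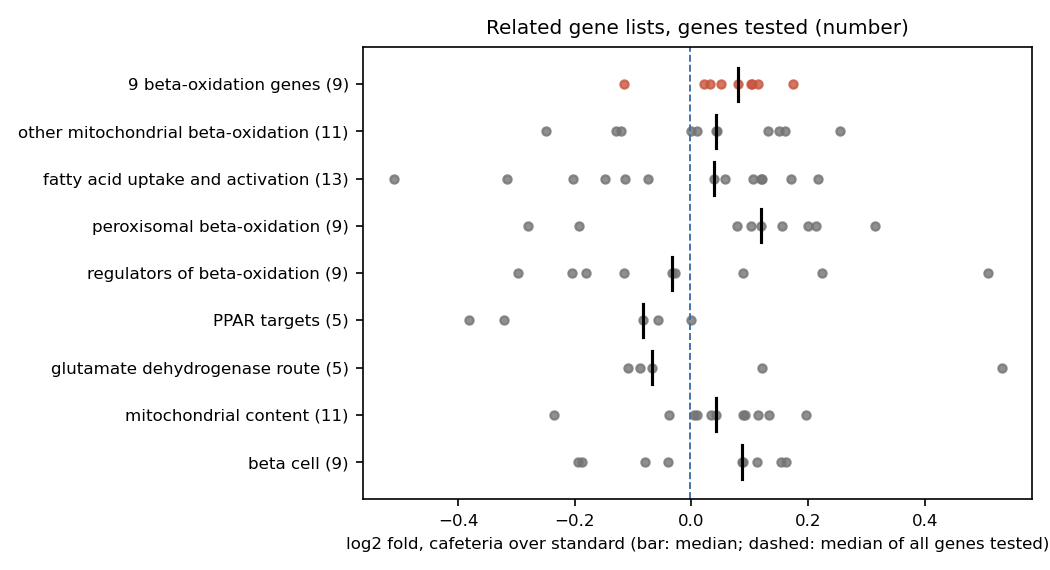
Log2 fold of cafeteria over standard for each tested gene of the 9 beta-oxidation genes (red) and of 8 related lists (grey); black bars are list medians and the dashed line the median of all genes tested, -0.0019. The 9 genes lie between -0.12 and 0.17, while Fabp5 at -0.51 and Got1 at 0.53 lie farthest out in the other lists.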

How the data were processed

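The deposited values are linear intensity signals of each probe set. The submitters' processing notes name MAS5 as the authors' tool, without a version. The 2% trimmed mean of every array was 500, so no further scaling was applied. Signals were tested as log2(signal + 16), a scale that understates the change of dim genes, with limma 3.58.1 under R 4.3.3; the model held diet alone and let the variance follow signal. Benjamini-Hochberg adjustment ran over the 18625 probe sets at or above the 40th percentile of mean log2 signal, and 0.05 was the threshold for adjusted p. Single genes were also tested by exact two-sided permutation over the 126 splits of 5 and 4 arrays, where the smallest possible p is 0.0079; correlations used exact permutation of arrays (Python 3.11.15). The code of the fit was run on simulated data with independent normal noise. These lack the differences between arrays found here, so that run does not bear on how well the model suits these samples. The number of arrays limits the precision, and detection calls were not used. Limma p-values set a difference in group means against the spread between these samples, with variance shared across probe sets. Permutation p-values rank the observed value among rearrangements of these arrays.

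Gene names came from the platform annotation. Per listed gene the brightest probe set was used; of each list described, up to 4 genes with the smallest unadjusted p were named, and for Hadh the 5 most correlated named probe sets. The members and lists were chosen with earlier results of these data known. Promoter sequences are RefSeq's (GRCr8), for 8 of 9 genes. Other settings tried were pseudocounts of 1 and 64, scaling by quantiles or medians, other filters, array weights, a replicate block, the beta-actin ratio as covariate, all probe sets of a gene averaged, and arrays left out.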

Additional observations from a re-analysis of the deposited data

Results flagged for a closer look

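The 45 probe sets checked were those of the 9 genes and of the 32 genes named by smallest p from the related lists. Other genes mentioned, such as Plin2, Cd74 and Drg1, were not checked. Within both groups of these 45, 9 single arrays stood far from the rest of their group, where chance flags about 1 in 20 such groups. Acadm had 1458 on standard replicate 1, against 1129 to 1151 on the other standard arrays. Etfa had 1706 on cafeteria replicate 1, against 1166 to 1302 on the other cafeteria arrays. Ucp2 had 2374 on standard replicate 1 (others 4050.0 to 4257), Sirt3 592.6 on standard replicate 3 (673.8 to 689.2) and Gls2 150.3 on standard replicate 3 (260.8 to 264.3). Acot2 had 431.0 on cafeteria replicate 3 (others 370.8 to 384.7) and Uqcrc2 6284 on cafeteria replicate 3 (3809 to 4382). Angptl4 had 39.9 on cafeteria replicate 1 (others 114.2 to 166.7), and Got1 783.9 on cafeteria replicate 1 (1002 to 1097). No cause was tested.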

How the results depend on the processing

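No beta-oxidation gene passed limma's adjusted test in any of the 19 alternatives, and Slc25a20, Acadl, Acadm and Hadhb kept their sign in all of theirs. Over the array, 0 to 2 probe sets were called with 1 array left out, the 2 without standard replicate 2. Groups did not overlap for 1 to 2 of the 9 genes with 1 array left out, for 0 with median scaling and for 3 without the 3 doubted arrays, where fewer arrays a group make this easier. The share of all probe sets without overlap was not counted in these settings, so the counts cannot be set against a background. Without those 3 arrays the median fold was 0.0056 with 5 of 9 positive, and the log2 folds were -0.017 for Cpt2, -0.012 for Acadvl, -0.011 for Hadh, 0.079 for Pdk4 and 0.21 for Angptl4. With 1 array left out, ranges that crossed 0 were -0.033 to 0.081 for Acadvl, -0.013 to 0.068 for Hadh, -0.18 to 0.11 for the Hadha probe set 1394857_at, -0.10 to 0.021 for Pdk4, -0.23 to 0.20 for Angptl4 and -0.29 to 0.032 for Gls2. Hadh had -0.031 with quantile normalisation. Averaged over all probe sets of the gene, Cpt1a had -0.082, Hadha -0.019 and Hadh 0.65. For Hadh this combines the main probe set at 0.031 with the dimmer one at 1.26. The Hadha probe set 1394857_at had 0.0028 with array weights and 0.024 with the beta-actin covariate. The dimmer Hadh probe set, which passed the main filter only through the cafeteria arrays, had 0.92 to 1.59 in 18 alternatives. These are descriptions of the same arrays and add no support to its fold. The correlation of Hadha with Hadhb, -0.434, lay between -0.598 and -0.334 with 1 array left out, and was -0.675 with all arrays and the group means taken out. Same-numbered arrays of the diets, with group means taken out, had r from -0.384 to 0.03. They were not set beside differently numbered arrays, so whether the numbers mark pairs was not tested. With the replicate block the median fold was 0.059, the Hadha probe set 1394857_at had 0.11, and no call changed. The causes were not tested.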
